A study of Mus musculus with 9 samples.

Results

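The genes whose symbol starts with Ube2 were chosen from the expression table of mouse testis. This rule used only the symbols and found 38 members among 38685 rows. Of these, 37 are annotated as protein coding and 1, Ube2uos, is a long non-coding RNA antisense to Ube2u. The members lie on 16 chromosomes, and 3 of them, Ube2a, Ube2dnl1 and Ube2dnl2, are X-linked. Ube2cbp carries the name but is known as a ligase of the E3 type that binds an E2 enzyme.

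RNA was taken from whole testis, without the tunica albuginea, of C57BL/6 males that were wildtype (Prm2+/+), heterozygous for a Prm2 mutation (Prm2+/-) or Prm2-deficient (Prm2-/-), with 3 libraries per genotype. The mutant mice came from Prm2-deficient lines made by gene editing with CRISPR/Cas9 in oocytes. Prm2 encodes protamine 2, which packs DNA in the sperm nucleus. The males' age is not given in the sources used here. The study calls the 3 samples of a genotype biological replicates, while the labels do not name the animals. Each library holds reads from the 3′ ends of mRNAs, and the values below are normalized counts, which are reads per gene divided by a scale factor of the library.

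Conjugating enzymes, or E2 enzymes, stand in the middle of the ubiquitin cascade. An E1 enzyme activates ubiquitin and hands it to a cysteine of the E2, and the E2 then works with an E3 ligase to place it on a target protein. Some E2 enzymes carry relatives of ubiquitin instead, such as NEDD8, which switches on cullin ligases. In the testis the cascade is known for its part in meiosis, in the exchange of histones for protamines in spermatids and in the turnover of proteins as sperm take shape. Mice that lack Ube2b or Ube2j1 are known for male infertility.

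The catalytic centre shows what most members share. In 22 of the 37 coding members, the codons for His-Pro-Asn were followed by the codon of the cysteine 10 codons further on, or 11 codons further on in Ube2h and Ube2k. The windows below run 5′ to 3′ from the His codon to the cysteine codon, which is in capitals. They were read from GENCODE M21 transcripts of GRCm38 and are shown for the NEDD8 pair (Ube2f and Ube2m), the RAD6 pair (Ube2a and Ube2b), Ube2n and Ube2t, whose values are described further on.
Ube2f: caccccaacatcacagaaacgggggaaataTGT
Ube2m: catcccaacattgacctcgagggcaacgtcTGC
Ube2a: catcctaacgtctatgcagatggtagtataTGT
Ube2b: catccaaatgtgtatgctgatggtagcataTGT
Ube2n: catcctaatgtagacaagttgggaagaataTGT
Ube2t: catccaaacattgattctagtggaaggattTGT
The cysteine is codon 116 in Ube2f, 111 in Ube2m, 88 in Ube2a and Ube2b, 87 in Ube2n and 86 in Ube2t. The rule found no such window in the Ube2e, Ube2j, Ube2q and Ube2v genes or in Ube2ql1, Ube2w, Ube2o, Ube2z, Ube2u and Ube2cbp. The Ube2v proteins are known as E2 variants that lack the cysteine, whereas the Ube2e and Ube2j enzymes have it next to other residues. Over aligned coding bases, Ube2a and Ube2b were 77.6% identical, Ube2v1 and Ube2v2 65.5%, Ube2f and Ube2m 50.4%, and the X-linked Ube2dnl1 and Ube2dnl2 94.6%.

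The libraries held 3629929 to 4490411 reads assigned to genes. Replicate 3 of Prm2+/+ stood apart from the other libraries, with a chi-square per gene of 27.4 to 34.0 against them, whereas no other pair exceeded 21.2. Results described per library below are given with the values of the others, whereas members given by a range have this library within the range. Prm2 mRNA was not lower in Prm2-/- (34660, 36004 and 42766 normalized counts) than in Prm2+/+ (29757, 29716 and 39665). The edited part of the gene is not stated in the sources used here, so these 3′ reads do not check the labels. Markers of germ cells were high in every library, with 199466 to 220950 normalized counts summed over 6 markers of elongating spermatids and 4982 to 5606 over 6 markers of round spermatids. No marker of spermatogonia, spermatocytes, spermatids, Sertoli cells, Leydig cells, peritubular cells, macrophages, endothelial cells or erythroid cells passed the test (0 calls by limma in any comparison). The unadjusted p was under 0.05 for Tnp1 of the elongating spermatid list and for 2 of 4 peritubular markers (Acta2 and Cnn1) in Prm2-/- against Prm2+/+, where the peritubular sum was 236 to 293 against 291 to 353. In Prm2+/- against Prm2+/+ it was under 0.05 for Acta2 (LFC -0.22) and for Des in the opposite direction (LFC 3.16), with peritubular sums of 280 to 300 and 291 to 353. The part of these cells in the Ube2 values was not tested.

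Of the 38 members, 33 had enough reads to be tested. Between Prm2-/- and Prm2+/+, the fitted difference of 28 of the 33 stayed within 0.5 on the log2 scale, as did that of 77.8% of all genes tested. In testis RNA, fewer cells of a type and less RNA per cell cannot be told apart. Values were tested with limma over 14893 genes, on a log2 scale after adding 1. A gene was called when its log2 fold change (LFC) was beyond 0.5 and its p, adjusted by Benjamini-Hochberg, was under 0.05. In Prm2-/- against Prm2+/+, 0 of 33 members were called higher, beside 0.154% of all genes tested, and 0 were called lower, beside 0.0269%. An unadjusted p under 0.05 was reached by 4 of 33 members, beside 7.33% of all genes, namely Ube2f, Ube2q2, Ube2v1 and Ube2d1. The 3 libraries of each genotype did not overlap for 7 members (Ube2f, Ube2q2, Ube2v1, Ube2d1, Ube2j2, Ube2w and Ube2j1), beside 14% of all genes. edgeR on the recovered counts also called 0 members, while DESeq2 called 1, Ube2f, lower. The median LFC of the members was 0.06 and that of all genes 0.02.

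In Prm2+/- against Prm2+/+, limma called 0 members higher, beside 0.0604% of all genes, and 0 lower, beside 0.0201%. The unadjusted p was under 0.05 for 1 member, Ube2f, beside 4.24% of all genes, and 3 members (Ube2d1, Ube2a and Ube2w) did not overlap, beside 9.44%. In Prm2-/- against Prm2+/-, 0 members were called higher, beside 0.148% of all genes, and 0 lower, beside 0.0269%. Here 1 member, Ube2q2, had an unadjusted p under 0.05, beside 5.44%, and 4 members (Ube2q2, Ube2j2, Ube2a and Ube2e3) did not overlap, beside 14.7%. edgeR and DESeq2 called 0 members in either comparison. The median LFC of the members was 0.09 in Prm2+/- against Prm2+/+ and -0.03 in Prm2-/- against Prm2+/-, beside 0.01 and -0.01 for all genes. These 3 comparisons share libraries in pairs, so they are not independent of each other.

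**Figure D1:**
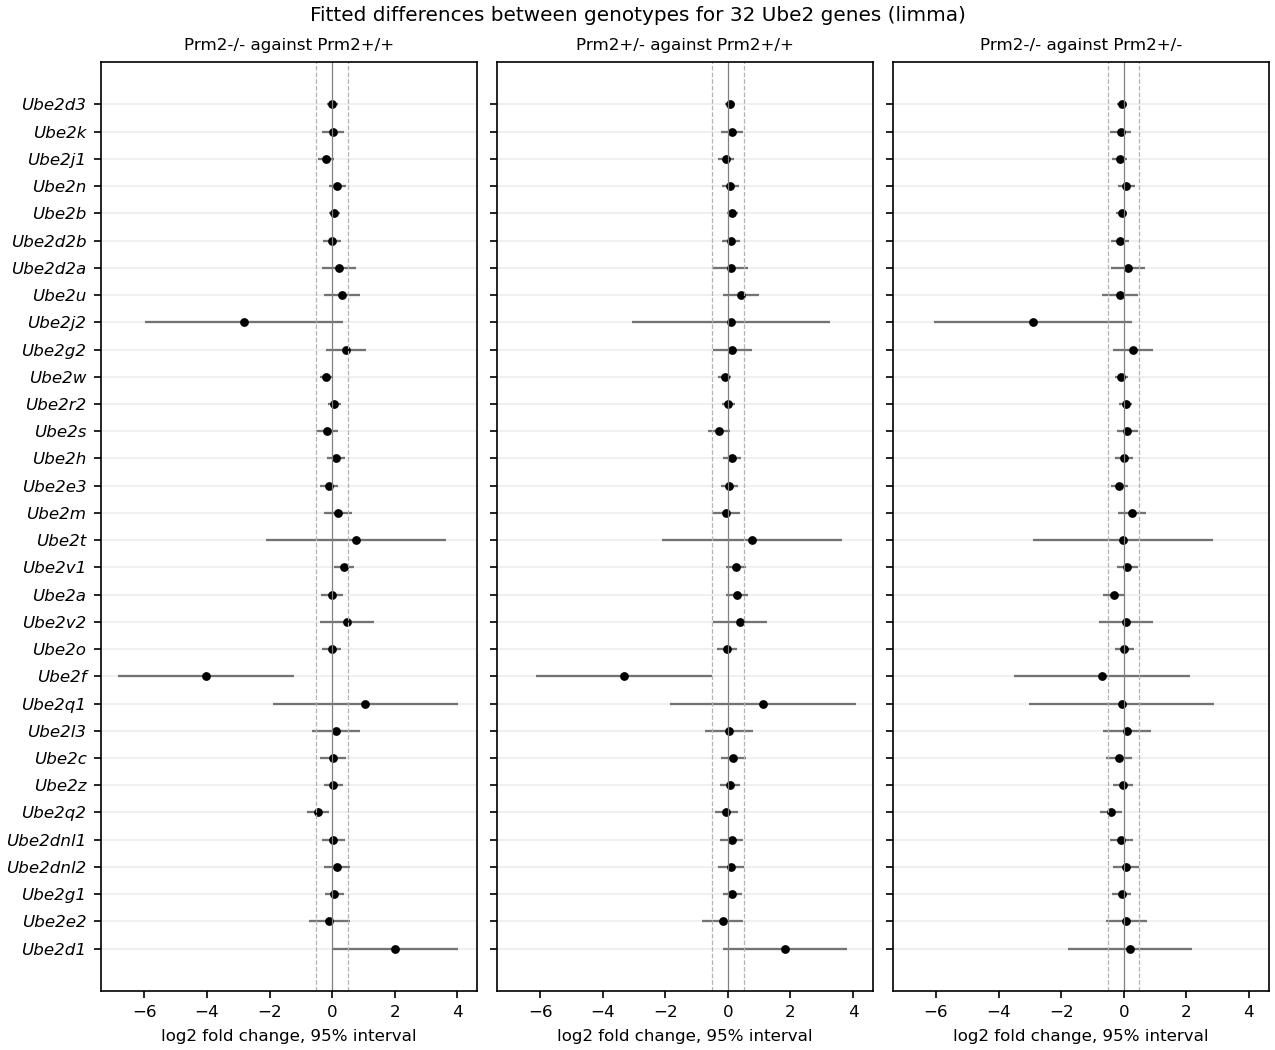
Fitted log2 fold change (points) with its 95% interval (lines) for 32 of the 33 tested Ube2 genes in the 3 comparisons, ordered by mean level, with dashed lines at an LFC of 0.5 either way. Intervals are wide for Ube2f, Ube2t, Ube2q1, Ube2j2 and Ube2d1 and narrow for most others, such as Ube2d3.

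For 14 members the 95% intervals stayed within an LFC of 0.5 either way in all 3 comparisons, which was so for 16.9% of all genes tested. They were Ube2b, Ube2d2b, Ube2d3, Ube2dnl1, Ube2e3, Ube2g1, Ube2h, Ube2j1, Ube2k, Ube2n, Ube2o, Ube2r2, Ube2w and Ube2z. The coefficient of variation over the 9 libraries had a median of 13.6% among the tested members and of 21.1% among all genes tested. It was under 10% for 12 of the 33 members and for 11.7% of all genes. Both this coefficient and the interval width depend on level. The members were not compared with genes of similar level, so these shares do not show that they vary less than such genes.

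**Figure D2:**
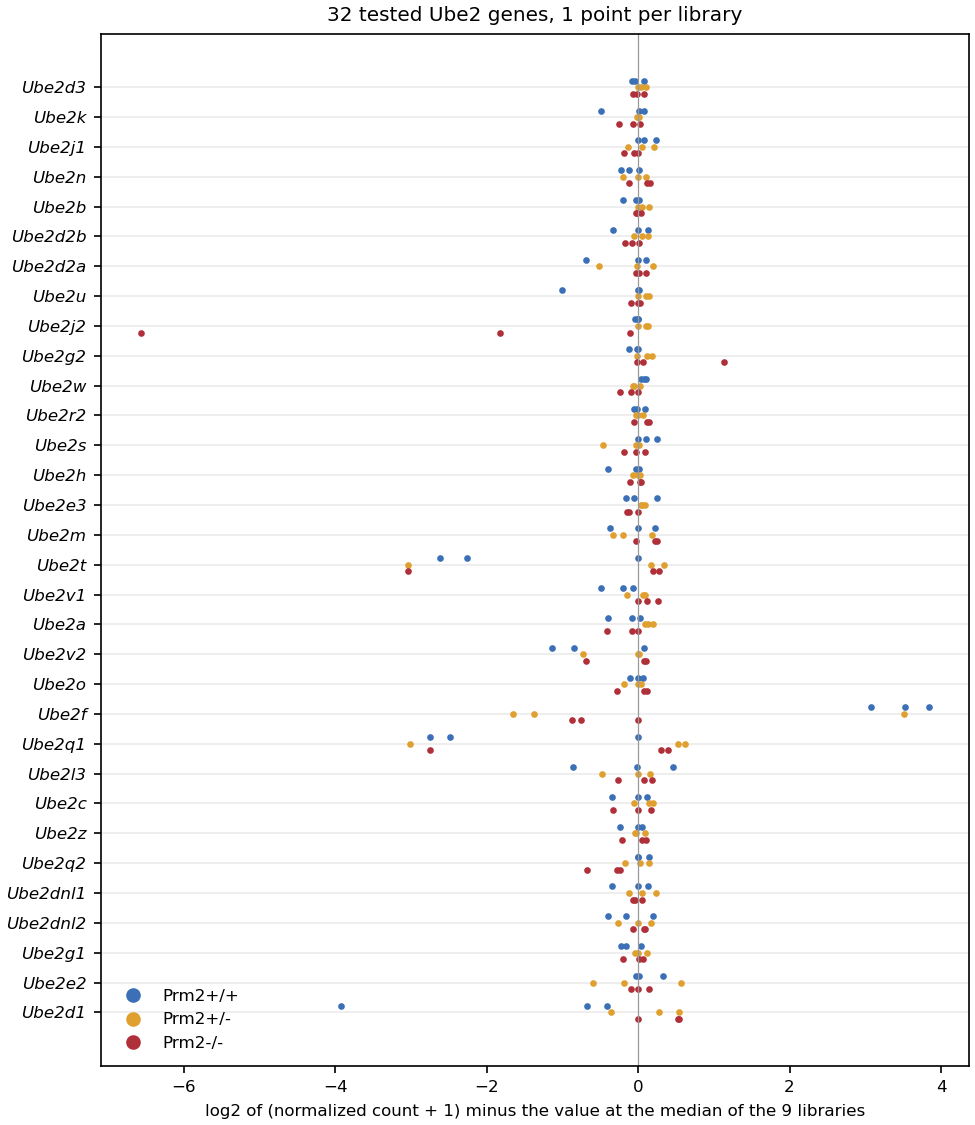
Each point is the log2 normalized count plus 1 of a library minus the value at the median of the 9 libraries, for 32 of the 33 tested Ube2 genes ordered by mean level. Most genes lie close to 0, whereas Ube2f, Ube2t, Ube2q1, Ube2j2 and Ube2d1 spread over several log2 units.

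Ube2f, an E2 enzyme for NEDD8 that is known to act on cullin 5, had the largest LFC in size of all tested members in Prm2-/- against Prm2+/+. Its normalized counts were 353, 259 and 443 in Prm2+/+, 351, 10.96 and 8.84 in Prm2+/- and 29.9, 17.3 and 15.8 in Prm2-/-. All Prm2+/+ libraries and replicate 1 of Prm2+/- were high, while all Prm2-/- libraries and the other Prm2+/- libraries were low, so that Prm2+/- spanned both levels. The group values were 352 ± 91.9 (SD, n = 3) in Prm2+/+, 124 ± 197 in Prm2+/- and 20.99 ± 7.73 in Prm2-/-. Against Prm2+/+, the Prm2-/- libraries gave an LFC of -4.03 with an SE of 1.22, and the 95% interval ran from -6.84 to -1.21 (limma, unadjusted p = 0.0109, Benjamini-Hochberg adjusted p = 0.533). In Prm2+/- against Prm2+/+ it was -3.32 (limma, adjusted p = 0.842). In Prm2-/- against Prm2+/- it was -0.71 (limma, adjusted p = 0.9997). With edgeR and DESeq2 on recovered counts, the LFC was -1.51 by both in Prm2+/- against Prm2+/+, and -2.54 and -2.56 in Prm2-/- against Prm2+/-, again without a call.

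The call for Ube2f depended on how the spread was estimated. It was called lower in Prm2-/- against Prm2+/+ by DESeq2 (adjusted p = 0.0369), by limma on the 6 samples compared (adjusted p = 0.00772) and by limma without replicate 1 of Prm2+/- (adjusted p = 0.00261). Over all alternatives the adjusted p lay between 0.00261 and 0.892 and the LFC between -4.30 and -3.79. Without replicate 1 of Prm2+/-, Ube2f was also called lower in Prm2+/- against Prm2+/+ (limma, LFC -4.99, adjusted p = 0.00212). Between Prm2-/- and Prm2+/- the LFC then turned to 0.96 (limma, adjusted p = 0.878).

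Values that split into a high and a low level were sought without the genotypes. The rule required a gap of at least 2 on the log2 scale between neighbouring libraries in order of level, larger than the range on either side of it, and a mean of at least 20 on the upper side. It held for 4 of 33 members (12.1%) and for 1353 of 14893 genes (9.08%), so a share of members near that of all genes. The 4 were Ube2f at chr1:91250304-91290337 (plus strand), Ube2t at chr1:134962565-134974162 (plus strand), Ube2q1 at chr3:89773616-89784000 (plus strand) and Ube2j2 at chr4:155943831-155959604 (plus strand), in GRCm38. Ube2f had its 5 low libraries at 8.84 to 29.9 and its 4 high libraries at 259 to 443, and 1 other tested gene had the same low libraries.

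Ube2t is known as the E2 enzyme of the Fanconi anaemia pathway of DNA crosslink repair. Its normalized counts were 42.8, 268 and 55.2 in Prm2+/+, 31.6, 302 and 340.2 in Prm2+/- and 323, 308 and 31.7 in Prm2-/-. The 4 low libraries came from all genotypes, and the groups overlapped. In these 4 libraries it was at 31.6 to 55.2, and in the other 5 at 268 to 340, with 4 other genes showing the same split. Ube2q1 is a larger E2-like enzyme. It stood at 27.6, 191 and 33.1 in Prm2+/+, 276, 22.8 and 293 in Prm2+/- and 252, 235 and 27.5 in Prm2-/-, again with low libraries in every genotype and overlapping groups. The split of Ube2q1 was shared by 2 other tested genes. Replicates 1 and 3 of Prm2+/+ and replicate 3 of Prm2-/- were low for both Ube2t and Ube2q1. Replicate 1 of Prm2+/- was low only for Ube2t and replicate 2 only for Ube2q1.

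Ube2j2, a membrane-bound E2 enzyme of protein degradation at the endoplasmic reticulum, was low in Prm2-/- only. Its normalized counts were 509, 524 and 526 in Prm2+/+, 572, 563 and 526 in Prm2+/- and 4.53, 147 and 486 in Prm2-/-. Replicate 1 of Prm2-/- was lowest, replicate 2 lay between, and replicate 3 lay just under the lowest control, so the 3 values of the genotype differed more from each other than those of any other genotype. The LFC was -2.82 with an SE of 1.37 in Prm2-/- against Prm2+/+ and -2.91 in Prm2-/- against Prm2+/- (limma, adjusted p = 0.716 and 0.945). Without replicate 1 of Prm2-/- these became -0.96 and -1.05, and without replicate 3 of Prm2-/- they became -4.19 and -4.28. By both edgeR and DESeq2 they were -1.29 and -1.38. None of these was called. Within 50 kb of the 4 genes lay 12 other tested genes, and 1 of them, Sdf4, also had 2 levels. The rule held for 9.08% of all genes tested, and a link between Sdf4 and Ube2j2 was not tested. Sdf4, which encodes a calcium-binding protein of the Golgi, lies 33267 bases from Ube2j2 on the same strand and stood at 29.5, 16.1 and 20.99 in Prm2+/+, 27.7, 24.7 and 24.7 in Prm2+/- and 359, 332 and 16.9 in Prm2-/-. Its high libraries were replicates 1 and 2 of Prm2-/-, in which Ube2j2 was at 4.53 and 147. By the rule, only the first of these is at the low level of Ube2j2, and 25 other tested genes had the same split as Ube2j2.

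**Figure D3:**
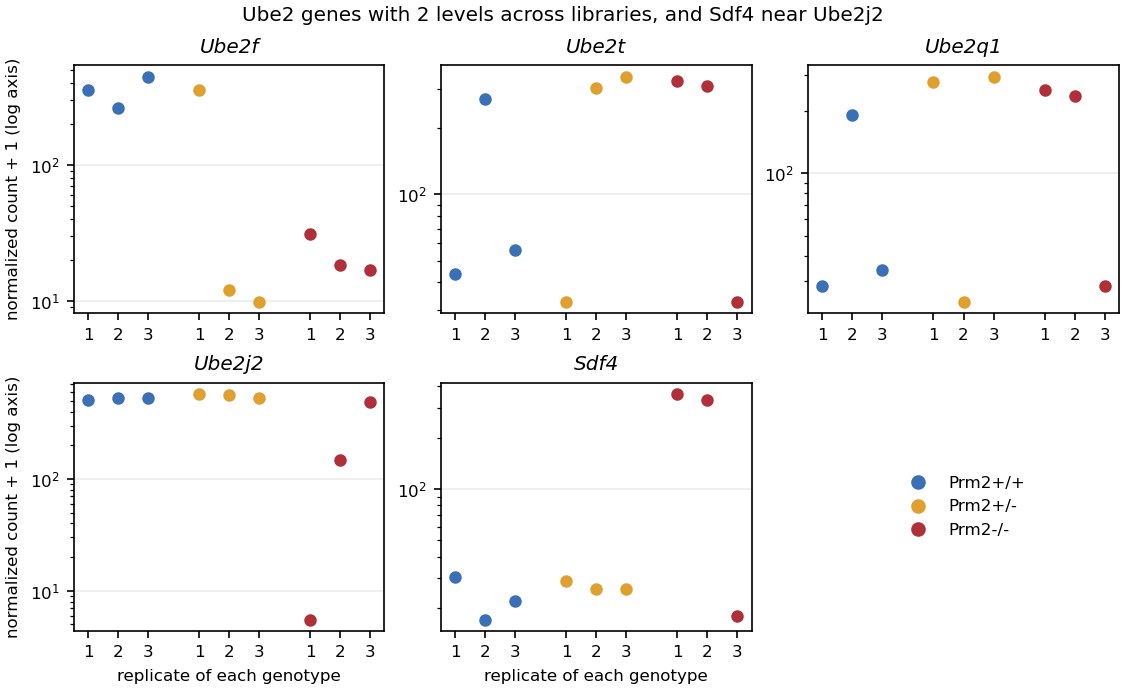
Normalized count plus 1 on a log axis for the 4 Ube2 genes with 2 levels and for Sdf4, with 1 point per library in the order of the replicates. Ube2f is low in all Prm2-/- and in 2 of 3 Prm2+/- libraries, Ube2t and Ube2q1 are low in libraries of every genotype, Ube2j2 is low in replicate 1 of Prm2-/-, and Sdf4 is high in replicates 1 and 2 of Prm2-/-.

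Ube2m, the other E2 enzyme for NEDD8 and known to act on most cullins, showed no such split. Its normalized counts were 175, 226 and 264 in Prm2+/+, 197, 179.9 and 256 in Prm2+/- and 222, 265 and 268 in Prm2-/-. All genotypes overlapped. Among 19 tested partners of the NEDD8 pathway, limma called 0 in each comparison, with an unadjusted p under 0.05 for 2 in Prm2-/- against Prm2+/+, 2 in Prm2+/- against Prm2+/+ and 3 in Prm2-/- against Prm2+/-. Nedd8 itself was at 587, 654 and 788 in Prm2+/+, 567, 576 and 618 in Prm2+/- and 607, 557 and 571 in Prm2-/-. Replicate 3 of Prm2+/+ was highest, and all genotypes overlapped with or without it. Rnf7, the RING protein known to pair with Ube2f, was at 546, 514 and 348 in Prm2+/+, 569, 563 and 587 in Prm2+/- and 597, 573 and 504 in Prm2-/-, with replicate 3 of Prm2+/+ lowest. Cul5, their cullin, was at 412, 436 and 439 in Prm2+/+, 446, 635 and 557 in Prm2+/- and 366, 386 and 359 in Prm2-/-. The Prm2-/- libraries were lowest and did not overlap the others, but the adjusted p was 0.557 in Prm2-/- against Prm2+/- (limma, LFC -0.54, SE 0.13), and in Prm2-/- against Prm2+/+ the unadjusted p was not under 0.05. Cul3 had 2 levels and was low only in replicates 1 and 3 of Prm2+/+, with 124, 1597 and 141 in Prm2+/+, 1610.5, 1719 and 1738 in Prm2+/- and 1521, 1581 and 1419 in Prm2-/-. The genes Nedd8, Rnf7, Cul5 and Cul4a were named here after their values were seen.

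Upstream of most ubiquitin E2 enzymes, Uba1, the main E1 enzyme of ubiquitin, was called. Its normalized counts were 20.9, 16.1 and 23.2 in Prm2+/+, 16.8, 14.6 and 22.1 in Prm2+/- and 559.7, 559 and 737 in Prm2-/-. All Prm2-/- libraries were far above the others, and no value overlapped. The LFC was 4.88 with an SE of 0.21 in Prm2-/- against Prm2+/+ (limma, adjusted p = 4.45e-05) and 5.05 in Prm2-/- against Prm2+/- (limma, adjusted p = 4.08e-05). Among the 10 tested E1 enzymes it was the only call. By the rule above, Uba1 also had 2 levels, with the Prm2-/- libraries high. That rule held for 9.08% of all genes tested. Uba6 is another E1 enzyme of ubiquitin. It was at 138, 78.2 and 106 in Prm2+/+, 126, 118 and 102 in Prm2+/- and 98.7, 109 and 103 in Prm2-/-. Its genotypes overlapped, and it is given after its values were seen. The list of E1 enzymes also held Uba1y, whose values are not given here, so the total of ubiquitin E1 mRNA is not described.

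**Figure D4:**
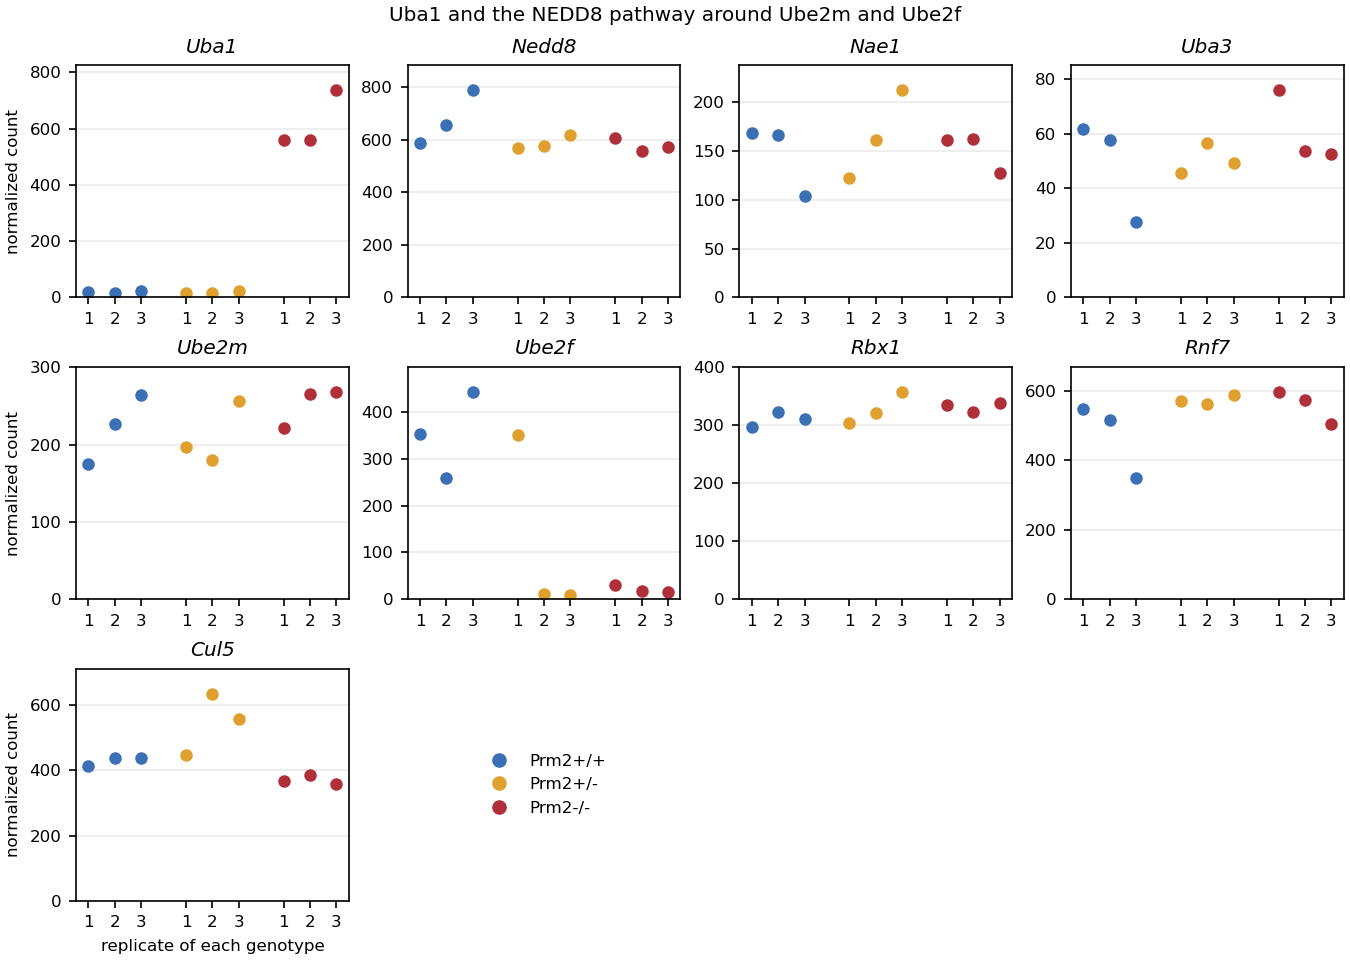
Normalized counts (axis from 0) of Uba1 and of genes of the NEDD8 pathway, with 1 point per library. Uba1 is at 559 to 737 in Prm2-/- and at 14.6 to 23.2 in the other libraries, while Ube2f is low in Prm2-/- and in 2 Prm2+/- libraries, and Ube2m, Nae1 and Uba3 overlap between genotypes.

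The RAD6 pair, Ube2a and Ube2b, is known for marking histone H2B and for DNA damage tolerance, and Ube2b is needed for normal spermatogenesis. The normalized counts of Ube2b were 1201, 1170.2 and 1046 in Prm2+/+, 1243, 1196 and 1318 in Prm2+/- and 1182, 1171 and 1231 in Prm2-/-. Those of the X-linked Ube2a were 188, 175 and 140.3 in Prm2+/+, 202, 197 and 211 in Prm2+/- and 175, 185 and 139 in Prm2-/-. Per kilobase of annotated exon, Ube2b was at 562 and Ube2a at 78.8 normalized counts, although reads from 3′ ends do not scale with length. Ube2b overlapped between all genotypes, whereas the Prm2+/- libraries of Ube2a lay above all others by a small margin. Among 11 tested ligases and partners of the pair, 0 were called by limma in each comparison, with an unadjusted p under 0.05 for 0, 0 and 1 in Prm2-/- against Prm2+/+, Prm2+/- against Prm2+/+ and Prm2-/- against Prm2+/-. Rnf40 and Ubr3 of this list had 2 levels.

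Replicate 3 of Prm2+/+, the library that stood apart, was low for several members. Ube2u had 441 in replicate 3 of Prm2+/+ and 829 to 979 in the other libraries. Ube2d1 had 0 there, which allows up to 3 counts, and 8.57 to 21.2 elsewhere. Over the 33 members, this library held the lowest value for 12 and the highest for 6, beside 25.7% and 23.9% of all genes tested. Replicate 3 of Prm2+/- held the highest value for 11 members, beside 12.8% of all genes. Values that lay more than 1.5-fold outside the range of the other 8 libraries were found in 5 of 33 members, among them Ube2u, Ube2d1, Ube2g2 and Ube2j2, and in 22.9% of all genes. All Ube2 genes together took 0.367% of the counts in replicate 3 of Prm2+/+ and 0.403% to 0.434% in the other libraries.

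**Figure D5:**
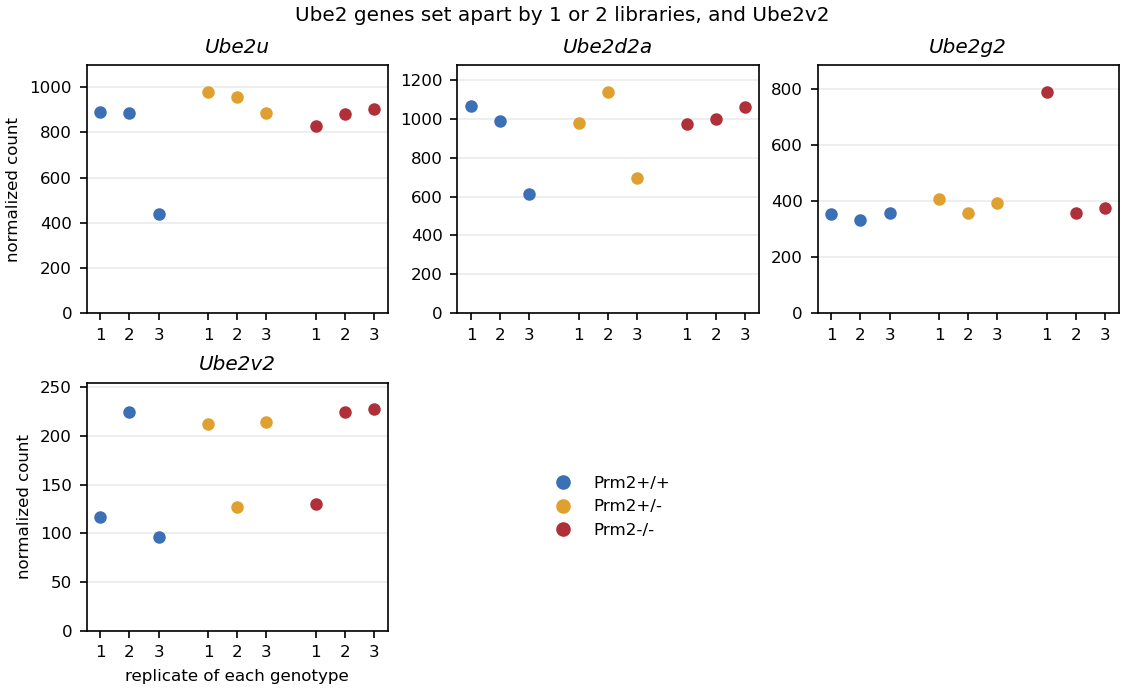
Normalized counts (axis from 0) of 4 Ube2 genes, with 1 point per library. Replicate 3 of Prm2+/+ is low for Ube2u, replicate 3 of both Prm2+/+ and Prm2+/- is low for Ube2d2a, replicate 1 of Prm2-/- is high for Ube2g2, and Ube2v2 falls into a lower and an upper set of libraries.

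The Ube2d enzymes serve many RING ligases. Ube2d3 had the highest mean of all members, 2144 normalized counts, with 2247, 2067 and 2003 in Prm2+/+, 2125, 2188 and 2288 in Prm2+/- and 2112, 2021 and 2243 in Prm2-/-. All libraries lay close together. Ube2d2a ranged from 613 to 1139 and its close relative Ube2d2b from 822 to 1135, with 92.7% of coding bases identical between them. Both were lowest in replicate 3 of Prm2+/+. For Ube2d1, the lowest tested member, the counts were 10.5, 8.57 and 0 in Prm2+/+, 10.9, 17.4 and 21.2 in Prm2+/- and 20.8, 14.2 and 21.1 in Prm2-/-. The Prm2+/+ libraries lay under all others, but the LFC of 2.02 in Prm2-/- against Prm2+/+ (limma, SE 0.86, adjusted p = 0.677) fell to 0.89 without replicate 3 of Prm2+/+ and to 1.21 with a pseudocount of 5. Ube2dnl1 ranged from 69.7 to 104 and Ube2dnl2 from 61.1 to 92.8. Of the Ube2e enzymes, Ube2e3 ranged from 212 to 282 and Ube2e2 from 22.8 to 52.1, while Ube2e1 was not tested. Ube2dnl2 and Ube2e3 were highest in replicate 3 of Prm2+/+.

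Ube2n and its cofactors Ube2v1 and Ube2v2 are known to build ubiquitin chains that signal rather than lead to degradation. Ube2n stood at 1117, 1044 and 1229 in Prm2+/+, 1312, 1219 and 1057 in Prm2+/- and 1362, 1321 and 1119 in Prm2-/-, with overlapping genotypes. Ube2v1 stood at 130.2, 159 and 175 in Prm2+/+, 192, 165 and 195 in Prm2+/- and 198, 183 and 219 in Prm2-/-. Its Prm2-/- libraries were all above those of Prm2+/+, with an LFC of 0.38 and an SE of 0.14 (limma, unadjusted p = 0.0293, adjusted p = 0.630). Reads of Ube2v1 are uncertain, since 74.9% of the stretches of 50 bases within the last 500 bases of its transcripts also occur in other annotated genes, Gm20431 first. Ube2v2 stood at 117, 224 and 96.1 in Prm2+/+, 212, 127 and 214 in Prm2+/- and 130.4, 224 and 227 in Prm2-/-. These values formed a set from 96.1 to 130 and a set from 212 to 227, and each genotype had libraries in both.

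Ube2c and Ube2s start and extend ubiquitin chains for the anaphase-promoting complex, which drives cell division. Ube2c stood at 117, 128 and 91.7 in Prm2+/+, 129.5, 134 and 113 in Prm2+/- and 93.3, 132 and 117 in Prm2-/-. Ube2s stood at 363, 431 and 390.1 in Prm2+/+, 264, 356 and 366 in Prm2+/- and 357, 389 and 318 in Prm2-/-. Both overlapped between all genotypes.

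Enzymes of degradation at the endoplasmic reticulum include Ube2j1, Ube2j2, Ube2g1 and Ube2g2. Ube2j1 was among the leading members per exon length (530 normalized counts per kilobase of exon) and stood at 1945, 1835 and 2165 in Prm2+/+, 1675, 1905 and 2122 in Prm2+/- and 1608, 1826 and 1769 in Prm2-/-. The Prm2-/- libraries lay just under all Prm2+/+ libraries but overlapped those of Prm2+/-. Ube2g2 had 790 in replicate 1 of Prm2-/- and 331 to 408 in the other libraries, so this library held both the highest Ube2g2 and the lowest Ube2j2 value. Ube2g1 ranged from 64.3 to 81.3.

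Ube2k, which extends ubiquitin chains that lead to degradation, stood at 2034, 2116 and 1429 in Prm2+/+, 2023, 2010.5 and 1997 in Prm2+/- and 1688, 2043 and 1923 in Prm2-/-. Replicate 3 of Prm2+/+ was again lowest. Ube2r2, a partner of cullin ligases, stood at 365, 403 and 376 in Prm2+/+, 373, 396 and 379 in Prm2+/- and 420.2, 366 and 411 in Prm2-/-, with overlapping genotypes. Cdc34 and Cdc34b, E2 enzymes of the same kind that are not named Ube2, were part of a list of 9 other E2 enzymes and variants, of which limma called 0 in each comparison. The unadjusted p was under 0.05 for 1 of the 9 in Prm2-/- against Prm2+/+, 0 in Prm2+/- against Prm2+/+ and 2 in Prm2-/- against Prm2+/-. Tsg101 of this list had 2 levels.

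Ube2q2, a relative of Ube2q1, stood at 102, 113 and 102 in Prm2+/+, 104, 112 and 90.1 in Prm2+/- and 83.3, 86.3 and 63.4 in Prm2-/-. All Prm2-/- libraries were under all others. The LFC was -0.45 with an SE of 0.15 in Prm2-/- against Prm2+/+ (limma, unadjusted p = 0.0205, adjusted p = 0.602) and -0.40 in Prm2-/- against Prm2+/- (limma, unadjusted p = 0.0331, adjusted p = 0.887). Without replicate 3 of Prm2-/- the latter LFC was -0.26. The adjusted p of the first comparison was 0.551 to 0.892 over all alternatives.

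The remaining tested members are given by their range over the 9 libraries. Ube2h, an E2 enzyme of the CTLH ligase, ranged from 204 to 277, and Ube2w, which modifies protein N-termini, from 345 to 439. Ube2o, a large enzyme that joins E2 and E3 activity, ranged from 142 to 188. Ube2z, which takes ubiquitin from Uba6, ranged from 97.2 to 123. Ube2l3, known to serve HECT and RBR ligases, ranged from 77.9 to 197. Replicate 3 of Prm2+/+ held the lowest value of Ube2h and Ube2z and the highest of Ube2w and Ube2l3. Per kilobase of exon, the leading members were Ube2d2b (604), Ube2b (562), Ube2u (553), Ube2j1 (530) and Ube2n (284 normalized counts per kilobase), and Ube2d1 was lowest of those tested (3.17).

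The 5 members not tested were Ube2cbp, Ube2l6, Ube2e1, Ube2ql1 and Ube2uos. Ube2ql1 and Ube2uos had 0 counts in all libraries, and each 0 allows up to 3 counts. Ube2l6, the E2 enzyme of the interferon-induced modifier ISG15, stood at 0, 0 and 0 in Prm2+/+, 0, 4.57 and 0 in Prm2+/- and 4.53, 5.07 and 3.17 in Prm2-/-. Ube2e1 stood at 0, 0 and 0 in Prm2+/+, 2.97, 0 and 0 in Prm2+/- and 4.53, 5.07 and 4.22 in Prm2-/-. Both had reads in all Prm2-/- libraries and in 1 Prm2+/- library, but each of these levels is close to the limit that a single count of 0 allows. That limit holds per library and does not take the 3 libraries of a genotype together. Ube2cbp ranged from 0 to 9.89.

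In the remaining pathway lists, limma called 0 of 9 ubiquitin and ubiquitin-like genes and 0 of 17 E3 ligases of spermatogenic cells in each comparison. In the first list the unadjusted p was under 0.05 for 0 in Prm2-/- against Prm2+/+, 0 in Prm2+/- against Prm2+/+ and 1 in Prm2-/- against Prm2+/-, and in the second for 0, 1 and 1. Ubb and Urm1 of the first list and Ube3b of the second had 2 levels.

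Neighbouring and related genes limit some of these values. Annotations of 16 members overlap another entry of the table, such as Ube2u with Ube2uos. Of the 37 coding members, 18 share at least 1 stretch of 50 bases with another gene within the last 500 bases of a transcript. The share of such stretches was 25.5% in Ube2h, 21.4% in Ube2d2a, 21.3% in Ube2v2, 19.3% in Ube2j2, 5.79% in Ube2f and 0% in Ube2t and Ube2q1. Reads from such stretches could have been counted for either gene.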

How the data were processed

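The 3′ ends of testis mRNA were sequenced in 9 libraries, 3 per genotype. Per the submitters' processing notes and the study's methods, the authors trimmed reads with Trim Galore 0.4.5, mapped them to GRCm38 (Ensembl release 89) with HISAT2 2.1, quantified genes with StringTie 1.3.3 and removed pseudogenes. The deposited values are a signal, namely counts that the authors divided by a size factor per library with DESeq2. All values were whole multiples (100%, within 0.01) of 1 step per library, which gave recovered counts of 3629929 to 4490411. For replicate 1 of Prm2+/- the step was close to 1, which makes the recovery less certain there. The table had 0 columns without a sample.

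The members and lists were chosen with earlier results of these data known. Genes were kept by edgeR's filterByExpr on recovered counts, which left 14893. limma (lmFit and eBayes with trend) was run on log2 of the value plus 1 with genotype as the only term and all 9 libraries. A call needed an LFC beyond 0.5 and a p under 0.05 after adjustment by Benjamini-Hochberg. All tests are two-sided. The scripts were tested on simulated data. Alternatives were pseudocounts of 0.5 and 5, no filter, at least 10 counts in every library, TMM factors, only the 6 samples compared, a replicate block, edgeR, DESeq2 and each library left out.

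Positions and transcripts came from GENCODE M21, which matched all 38 members. Every tested member is named except 1, which enters the counts but is not reported here. Values per library are given for members that were called, had 2 levels or had an unadjusted p under 0.05, and for others chosen by role. Other genes are named where called, with 2 levels or near a member with 2 levels. Nedd8, Nae1, Uba3, Rbx1, Rnf7, Cul5, Cul4a, Gm20431, Uba6, Cdc34, Cdc34b and the markers were chosen with their values in view. The software was matplotlib 3.10.9, pandas 2.3.3 and numpy 2.4.6 under Python 3.11.15, and DESeq2 1.42.0, edgeR 4.0.16 and limma 3.58.1 under R 4.3.3. Intervals for 0 counts cover counting error only.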

Additional observations from a re-analysis of the deposited data

How the results depend on the processing

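Over 18 alternatives per comparison, the number of Ube2 genes called was 0 in 104 of 108 values and 1 in 4, each time Ube2f. In Prm2-/- against Prm2+/+, 1 member was called lower by DESeq2 and 1 when only the 6 libraries of the comparison were fitted, and leaving out single libraries gave 0 to 1, with 1 without replicate 1 of Prm2+/-. In Prm2+/- against Prm2+/+, leaving out single libraries gave 0 to 1 called lower, again with 1 without replicate 1 of Prm2+/-. The 195 LFC values came from Ube2f, Ube2q2, Ube2v1, Ube2d1, Ube2j2 and the non-member Uba1. Of these values, 190 kept their direction and their side of the threshold, 4 passed it and 1 turned. The limma LFC cannot move with the filter, the replicate block, only the 6 samples or a library outside the comparison left out. For these alternatives a kept direction was fixed in advance. The value that turned was that of Ube2f in Prm2-/- against Prm2+/-. It lay between -1.62 and 0.96 with single libraries left out and was at 0.96 without replicate 1 of Prm2+/-, a library at the high level. Ube2d1 and Ube2j2 have no value under the filter of at least 10 counts in every library. Members with 2 levels numbered 5 with a gap of 1 (14.9% of all genes) and 2, Ube2f and Ube2j2, with a gap of 3 (5.58%).

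Libraries with the same replicate number share only that number in the labels, which do not say whether they also shared a batch. Their deviations correlated between -0.0365 and 0.0423, and in 10 of 18 cases a library correlated best with its own number in another genotype. Each best match was picked from 3 libraries, so some such cases arise without any pairing, and the 10 were not tested against that. With the replicate block, 0 members were called higher or lower in each comparison, and Ube2f in Prm2-/- against Prm2+/+ had an LFC of -4.03 (limma, adjusted p = 0.608). The block left 14 genes called higher and 1 lower in Prm2-/- against Prm2+/+, where the fit without it called 23 and 4.

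With 3 libraries per genotype, the median 95% interval of a member reached 0.36 on the log2 scale either way, so smaller differences lie within a typical interval.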
